A study of Mus musculus with 12 samples.

Results

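The proteins of the large subunit of the cytosolic ribosome were followed at the message level on the axonal and the somatodendritic side of mouse motoneurons depleted of Smn. They are the 46 protein-coding genes whose symbols are Rpl followed by a number, with or without a closing "a", or Rplp0, Rplp1 and Rplp2, out of 39174 genes listed for each library. The axonal group (6 libraries) and the somatodendritic group (6 libraries) both came from primary CD-1 mouse motoneurons with a knockdown of Smn, grown in microfluidic chambers that let axons enter a compartment apart from the cell bodies. Smn is the survival motor neuron protein, which assembles RNA-protein particles and is short in spinal muscular atrophy. Every library used here carried the knockdown, so the comparison is between compartments and not between depleted and unperturbed cells. The labels do not say how the knockdown was made or whether the replicates were separate cultures, so a p-value here describes how much these libraries vary, part of which may be technical. In bulk RNA of this kind, fewer cells of a type and less RNA per cell cannot be told apart.

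The large subunit joins amino acids into protein at its peptidyl transferase centre, passes the chain out through an exit tunnel and recruits the GTPase factors of translation with a flexible stalk. Its proteins are made in roughly matched amounts, and most of their messages start with a C and a pyrimidine stretch, the terminal oligopyrimidine (TOP) element, through which mTOR and the RNA-binding protein Larp1 control their translation. Messages for ribosomal proteins are among the abundant RNAs of axons in several kinds of neuron, where locally made proteins can join existing ribosomes. Ribosomal protein genes have also left many processed pseudogenes in mammalian genomes, which matters when short reads are assigned to genes.

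The libraries were shallow. The size of the smallest steps in the values implied, in units of 1000 reads, a depth of 219 to 731 in the axonal libraries and of 55 to 364 in the somatodendritic ones, with the 55 in somatodendritic replicate 4. The share of all FPKM in mitochondrially encoded genes was 9.71 to 53.5% on the axonal side and 10.4 to 12.0% on the somatodendritic side, and replicates 1 and 2 stood apart from replicates 3 to 6 in their share of short non-coding RNA, with 5.61 and 8.68% in axonal replicates 1 and 2 and at least 12.9% in the other axonal libraries. FPKM are fragments per kilobase of transcript relative to the mapped total of the library, and scaled FPKM are those values after median-of-ratios scaling between libraries. Smn1 itself had 8.6, 16.8, 0, 7.30, 54.1 and 6.05 scaled FPKM in the axonal replicates, in order, and 4.12, 0, 0, 0, 15 and 0 in somatodendritic replicates 1 to 6, which without an unperturbed library checks nothing about the knockdown. Of 13 motoneuron and neuron markers found in the tables, Mnx1 and Chat, the defining motoneuron genes, were listed at 0 in all 12 libraries, while the 13 together summed to 1139 to 1498 scaled FPKM on the axonal side and 1301 to 1810.2 on the somatodendritic side.

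The letters around the annotated start illustrate what the large-subunit genes share beyond their names. RefSeq promoter windows on GRCm38.p6 were matched for 34 of the 46 genes, and in 16 of them (47.1%) a C followed by at least 4 letters that are each C or T began within 5 bases of the annotated start. The same pattern was found in 13 of 24 small-subunit genes (54.2%), in 13 of 41 genes for the large subunit of the mitochondrial ribosome (31.7%) and in 3421 of 15851 protein-coding genes with a window (21.6%). Only the gene's own strand was searched. The windows below run from 25 bases before to 15 bases from the annotated start, 5′ to 3′. Capitals mark a run with that pattern where there is one, and further C or T letters can lie directly before it. The first 4 belong to genes described below in which it was found: Rpl35 at chr2:39005117-39005156 on the minus strand, Rpl18 at chr7:45718046-45718085 on the plus strand, Rpl39 at chrX:37085208-37085247 on the minus strand and Rplp2 at chr7:141447626-141447665 on the plus strand.
Rpl35: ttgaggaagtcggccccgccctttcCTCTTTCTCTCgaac
Rpl18: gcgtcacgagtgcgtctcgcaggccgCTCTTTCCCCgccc
Rpl39: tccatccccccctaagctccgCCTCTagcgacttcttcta
Rplp2: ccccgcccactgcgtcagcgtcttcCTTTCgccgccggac

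The next 4 belong to genes described below in which no such run lay at the annotated start: Rpl41 at chr10:128549154-128549193 on the minus strand, Rplp0 at chr5:115559442-115559481 on the plus strand, Rpl11 at chr4:136053379-136053418 on the minus strand and Rpl5 at chr5:107900503-107900542 on the plus strand. Their absence says only that these letters were not at the annotated base.
Rpl41: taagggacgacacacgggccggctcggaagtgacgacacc
Rplp0: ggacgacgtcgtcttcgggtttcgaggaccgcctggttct
Rpl11: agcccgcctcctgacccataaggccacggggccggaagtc
Rpl5: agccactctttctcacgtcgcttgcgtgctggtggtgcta

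The summed level of the large-subunit messages was higher in every axonal library than in any somatodendritic one on the deposited scale. The summed FPKM of the 46 genes, as deposited, was 4468, 5214, 4169, 4391, 5424 and 4663 in axonal replicates 1 to 6, against 3135, 3292, 3743, 3493, 3842 and 3775 in somatodendritic replicates 1 to 6. The lowest axonal library lay above the highest somatodendritic one, and the means were 4722 ± 494 and 3547 ± 288 (SD over n = 6 a side). Without Rpl41 this separation was lost, as axonal replicate 1 then lay just below somatodendritic replicate 5. Rpl41 held a mean of 46.0% of the sum on the axonal side and 45.0% on the somatodendritic side. As a share of the FPKM of nuclear protein-coding genes the same sum was 1.42, 2.41, 2.02, 2.39, 3.22 and 1.94% in axonal replicates 1 to 6 and 1.13, 1.14, 1.85, 1.73, 1.88 and 1.83% in somatodendritic replicates 1 to 6. On this scale the groups overlapped, because axonal replicate 1 lay below 4 somatodendritic libraries. The mean shares were 2.23 ± 0.603% on the axonal side and 1.59 ± 0.360% on the somatodendritic side, a difference of 0.640 percentage points (0.780 within replicates 1 and 2 and 0.570 within replicates 3 to 6). No p was computed for these sums, since the genes were taken up with earlier results of these data known. Small-subunit genes took 0.541 to 1.54% on the axonal side and 0.441 to 0.942% on the somatodendritic side, and the genes of the mitochondrial large subunit 0.214 to 0.503% and 0.276 to 0.422% of the same total.

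**Figure D1:**
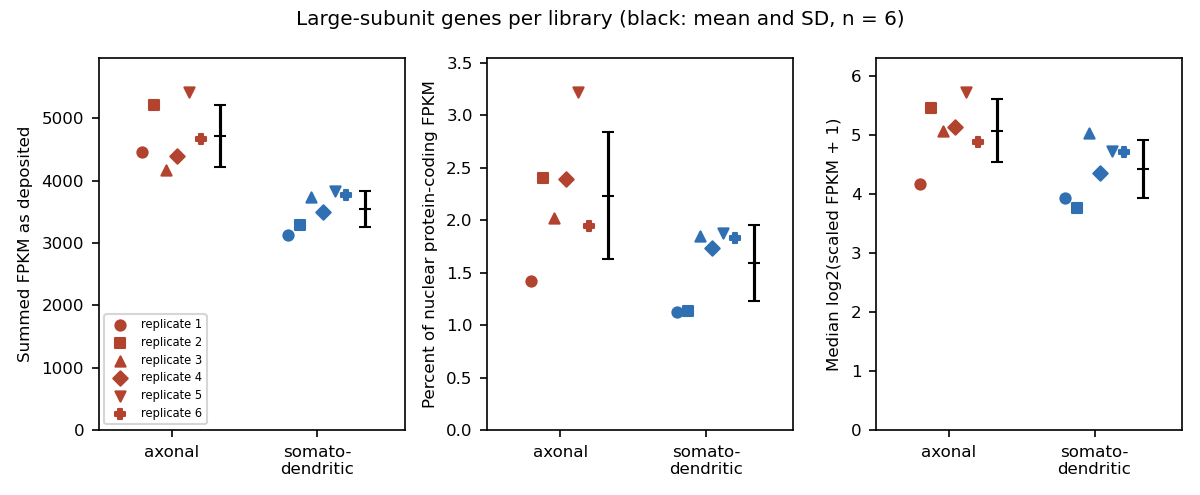
Summed FPKM of the 46 large-subunit genes as deposited (left), their percent of nuclear protein-coding FPKM (middle) and their median log2(scaled FPKM + 1) (right) in the axonal libraries (red) and the somatodendritic libraries (blue), with a marker for each replicate and the mean and SD of 6 libraries in black. The left panel shows no overlap between 4169 to 5424 on the axonal side and 3135 to 3842 on the somatodendritic side, while in the middle and right panels the groups overlap, with axonal replicate 1 the lowest axonal library.

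Rpl41 made up much of that sum. It encodes a very short, strongly basic protein at the interface of the subunits, lies at chr10:128548114-128549305 (GRCm38, minus strand, ENSMUSG00000093674) and supplied 41.0 to 53.6% of the large-subunit FPKM on the axonal side and 40.8 to 50.1% on the somatodendritic side. It had 1432, 4237, 1830.2, 2104, 3305 and 1745 scaled FPKM in axonal replicates 1 to 6, against 947, 1021, 1733, 1589, 1579.9 and 1769 in somatodendritic replicates 1 to 6. Axonal replicates 2 and 5 were far above all other libraries, and axonal replicate 1 lay below 4 somatodendritic ones. The means were 2442 ± 1092 and 1439.9 ± 362 (SD over n = 6 a side), a log2 fold change of 0.70 ± 0.25 (SE) that was not called (limma adjusted p = 0.452). Over 29 alternative settings that fold change ran from 0.20 to 1.21. Without Rpl41 the remaining 45 genes still took 0.720 to 1.78% of nuclear protein-coding FPKM on the axonal side and 0.642 to 1.11% on the somatodendritic side. On the deposited scale the sums without Rpl41 overlapped, as axonal replicate 1 then lay just below somatodendritic replicate 5. Of the sums of 4468 and 3842 FPKM in these libraries, Rpl41 held 2204 and 1567. FPKM of a message this short rests on the length correction, whose settings the sources used here do not give.

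No single large-subunit gene passed the test between compartments. In limma over 13914 genes, of which 1 (0.00719%) was called at an adjusted p of 0.05, 0 of the 46 were called. That gene, Fanci, is no ribosomal gene and is named after its value was seen. All 46 passed the filter on low values. At an unadjusted p under 0.05, 12 of the 46 were higher on the axonal side and 0 lower, beside 6.3% of all tested genes higher and 2.6% lower (8.9% in either direction). By exact rank-sum tests 11 passed that unadjusted level. The smallest p possible with 6 against 6, 0.00216, was reached by 99 genes. It was 0.304 after adjustment over all genes, so that no gene was called by rank-sum test. In 42 of 46 genes the log2 fold change was above 0, beside 60.6% of all tested genes. Their median was 0.60, and 40 of 46 lay above the all-gene median of 0.18, as 50% of all tested genes do. On scaled FPKM no large-subunit gene had groups without overlap, beside 0.417% of all tested genes higher and 0.295% lower. This depended on the scaling. In FPKM as deposited Rpl35 did not overlap, with 254 to 429 on the axonal and 142 to 223 on the somatodendritic side. Nor did Rpl31, with 51.1 to 102 and 31.4 to 49.4. The share of all genes without overlap on the deposited scale is not given here.

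The number at an unadjusted p under 0.05 moved with the libraries and the scaling, and under every setting tried all such large-subunit genes were higher in axons. Leaving out axonal replicate 1 gave 22 of 46 (47.8%, all tested genes 8.77%), and leaving out axonal replicate 5 gave 9 (19.6%, all genes 8.75%). FPKM as deposited, a common sum and plain moderation each gave 8 (17.4%), beside 7.75, 8.70 and 8.52% of all genes. Without somatodendritic replicate 4 and axonal replicates 1 and 2 there were 16 (34.8%, all genes 9.41%). The fewest were the 6 within replicates 1 and 2 (13.0%, all genes 5.69%), and within replicates 3 to 6 there were 8 (17.4%, all genes 6.36%). Within replicates 1 and 2 alone 39 of 46 genes had a fold change above 0 (median 0.78, all genes 0.06), and within replicates 3 to 6 alone 38 of 46 did (median 0.59, all genes 0.18). The 2 sets shared 33 genes. Across the 46 genes the fold changes of those 2 subsets had a Spearman rho of 0.18, a description over genes that share their libraries.

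**Figure D2:**
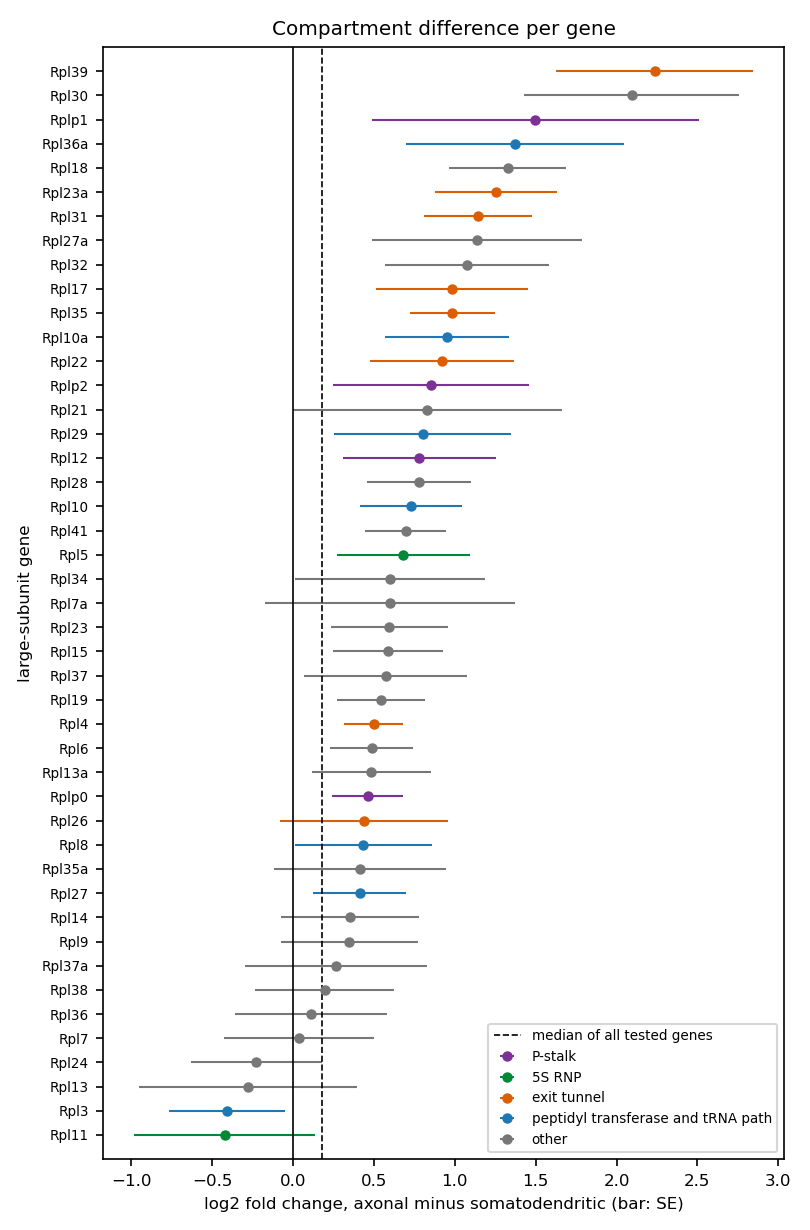
Log2 fold change, axonal minus somatodendritic, of 45 large-subunit genes (points) with standard errors (bars), coloured by the part of the subunit each protein belongs to. The dashed line is the median of all tested genes (0.18). 41 of 45 points lie right of 0, from −0.42 for Rpl11 to 2.24 for Rpl39.

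Proteins of the stalk were the first group by role. The stalk is a base protein, Rpl12, with Rplp0 and the acidic pair Rplp1 and Rplp2, which bind the elongation factors. All 4 genes were above the all-gene median, with a median log2 fold change of 0.82, and 0 reached an unadjusted p of 0.05. Without somatodendritic replicate 4, where Rplp1 and Rplp2 were listed at 0, that median was 0.43. Rplp0 (chr5:115559467-115563727, ENSMUSG00000067274), the anchor, was the second most abundant large-subunit message, with 209.6, 368, 342, 303, 440.4 and 163 scaled FPKM in the axonal replicates, in order, and 187, 230.2, 229.9, 198, 208 and 205 in somatodendritic replicates 1 to 6. The somatodendritic libraries stayed close together, at 209.8 ± 17.3, while the axonal ones spread over 304 ± 103 (SD over n = 6 a side), and axonal replicate 6 was the lowest of the 12. The log2 fold change was 0.46 ± 0.22 (SE, limma adjusted p = 0.564).

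Rplp1 had 43.2, 105, 135, 114, 204 and 32.6 scaled FPKM in the axonal replicates, in order, and 22.2, 40.9, 126, 0, 114 and 69.0 in somatodendritic replicates 1 to 6. The groups overlapped widely, and the listing at 0 in the shallow somatodendritic replicate 4 entered the fitted difference of 1.5 ± 1.01 on the log2 scale (limma adjusted p = 0.682), which was 0.46 without that library. Rplp2 was at lower levels, with 8.44, 13.7, 19.4, 10.7, 11.4 and 16.1 in axonal and 7.0, 5.81, 21.4, 0, 10.4 and 13.5 in somatodendritic replicates 1 to 6. Its highest value was a somatodendritic one, and its log2 fold change was 0.85 ± 0.60 (limma adjusted p = 0.691), or 0.23 without somatodendritic replicate 4. Although these 2 proteins enter the stalk as a pair, the Rplp1 message had the higher FPKM in all 11 libraries in which it was above 0.

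Rpl5 and Rpl11 join the ribosome together with the 5S ribosomal RNA, and outside it the same particle binds the p53 regulator Mdm2. Both genes are mutated in some people with Diamond-Blackfan anaemia. Rpl5 had 17.5, 59.2, 21.8, 27.2, 64.0 and 27.2 scaled FPKM in axonal replicates 1 to 6, against 19.3, 17.3, 32.3, 6.62, 27.3 and 28 in somatodendritic replicates 1 to 6. Axonal replicates 2 and 5 were high and the other 4 lay within the somatodendritic range, so the log2 fold change of 0.68 ± 0.41 was not called (limma adjusted p = 0.640) and was 0.36 without somatodendritic replicate 4. Rpl11 had the lowest fold change of all 46, −0.42 ± 0.56 (limma adjusted p = 0.836). It had 8.11, 33.9, 3.3, 33.9, 46.3 and 22.5 scaled FPKM in the axonal replicates, in order, and 17.3, 12.2, 16, 34.5, 37.0 and 54.6 in somatodendritic replicates 1 to 6. Its low axonal values were those of replicates 1 and 3, and without axonal replicate 3 the fold change was 0.01.

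Genes for proteins of the exit tunnel and its rim were the group with the largest median. All 8 lay above the all-gene median, at a median log2 fold change of 0.98. Rpl35, Rpl31, Rpl23a, Rpl39 and Rpl4, 5 of the 8, were higher in axons at an unadjusted p under 0.05. Of all tested genes 6.3% were. Rpl35 (chr2:39001580-39005624, ENSMUSG00000062997), a rim protein next to the binding site of the signal recognition particle, was the third most abundant message. It had 201, 651, 274, 297, 399 and 246 scaled FPKM in axonal replicates 1 to 6, against 141, 112, 176, 203, 221 and 138 in somatodendritic replicates 1 to 6. Only axonal replicate 1 lay inside the somatodendritic range, and the log2 fold change of 0.98 ± 0.26 had, level with Rpl18 and Rpl39, the smallest adjusted p of the 46 genes, and was not called (limma adjusted p = 0.359).

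Rpl31, also at the rim, showed the same overlap through axonal replicate 1 alone. It had 33.2, 155, 69.7, 81.4, 124 and 49.8 scaled FPKM in axonal replicates 1 to 6, against 25.7, 35.1, 32.8, 28.5, 47.8 and 34.9 in somatodendritic replicates 1 to 6 (log2 fold change 1.14 ± 0.33, limma adjusted p = 0.385). Rpl4, which forms part of the narrowest stretch of the tunnel, had 169, 233, 202, 239, 299 and 198 in axonal replicates and 148, 110.2, 171, 152, 187 and 179 in somatodendritic ones. Again only axonal replicate 1 lay inside the somatodendritic range (log2 fold change 0.50 ± 0.18, limma adjusted p = 0.469). Rpl23a, the docking protein for factors that meet the new chain, averaged 46.1 ± 20.5 scaled FPKM on the axonal side and 19.2 ± 9.76 on the somatodendritic side (SD over n = 6 a side; log2 fold change 1.26 ± 0.38, limma adjusted p = 0.386).

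Rpl39 (chrX:37082520-37085402, ENSMUSG00000079641), a small protein that lines the end of the tunnel, had the largest fold change of the 46 genes. It had 7.28, 9.89, 39, 17.4, 37.2 and 16.8 scaled FPKM in axonal replicates 1 to 6, against 2.72, 1.47, 7.51, 0, 11.9 and 3.10 in somatodendritic replicates 1 to 6. Somatodendritic replicate 5 lay above axonal replicates 1 and 2, and somatodendritic replicate 3 above axonal replicate 1. The log2 fold change was 2.24 ± 0.61 (limma adjusted p = 0.359). The value depended on what was counted, as the near-identical copies show further on.

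Around the peptidyl transferase centre and the path of the transfer RNAs, 6 of 7 genes were above the all-gene median, with a median log2 fold change of 0.73. Without somatodendritic replicate 4 it was 0.48, with 5 of 7 genes above the all-gene median. Rpl10, among the last proteins to join the new subunit, had 21.7, 23.1, 24.5, 29.8, 35.4 and 22.7 scaled FPKM in axonal replicates 1 to 6, against 13.9, 12.9, 21.7, 6.91, 25.1 and 17.5 in somatodendritic replicates 1 to 6. Only somatodendritic replicate 5 reached into the axonal range (log2 fold change 0.73 ± 0.32, limma adjusted p = 0.523; 0.48 without somatodendritic replicate 4). Rpl36a, near the exit site of the transfer RNA, had 2.03, 32.0, 19.8, 9.77, 11.6 and 17.2 in axonal replicates and 5.19, 3.51, 14.9, 0, 9.08 and 2.80 in somatodendritic replicates, with axonal replicate 1 below 5 of the 6 somatodendritic libraries (1.37 ± 0.67, limma adjusted p = 0.581; 0.87 without somatodendritic replicate 4). Rpl3, which reaches towards the catalytic centre, had a fold change below 0 that was not called. It had 4.76, 14.1, 8.42, 8.54, 12.5 and 10.3 scaled FPKM in axonal and 7.27, 10.1, 14.6, 19.3, 15.7 and 12.5 in somatodendritic replicates 1 to 6 (−0.41 ± 0.36, limma adjusted p = 0.754). Rpl29 had the lowest mean level of the 46, with 0.689 to 6.56 scaled FPKM on the axonal side and 0 to 5.19 on the somatodendritic side (0.80 ± 0.55, limma adjusted p = 0.683; 0.51 without somatodendritic replicate 4).

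**Figure D3:**
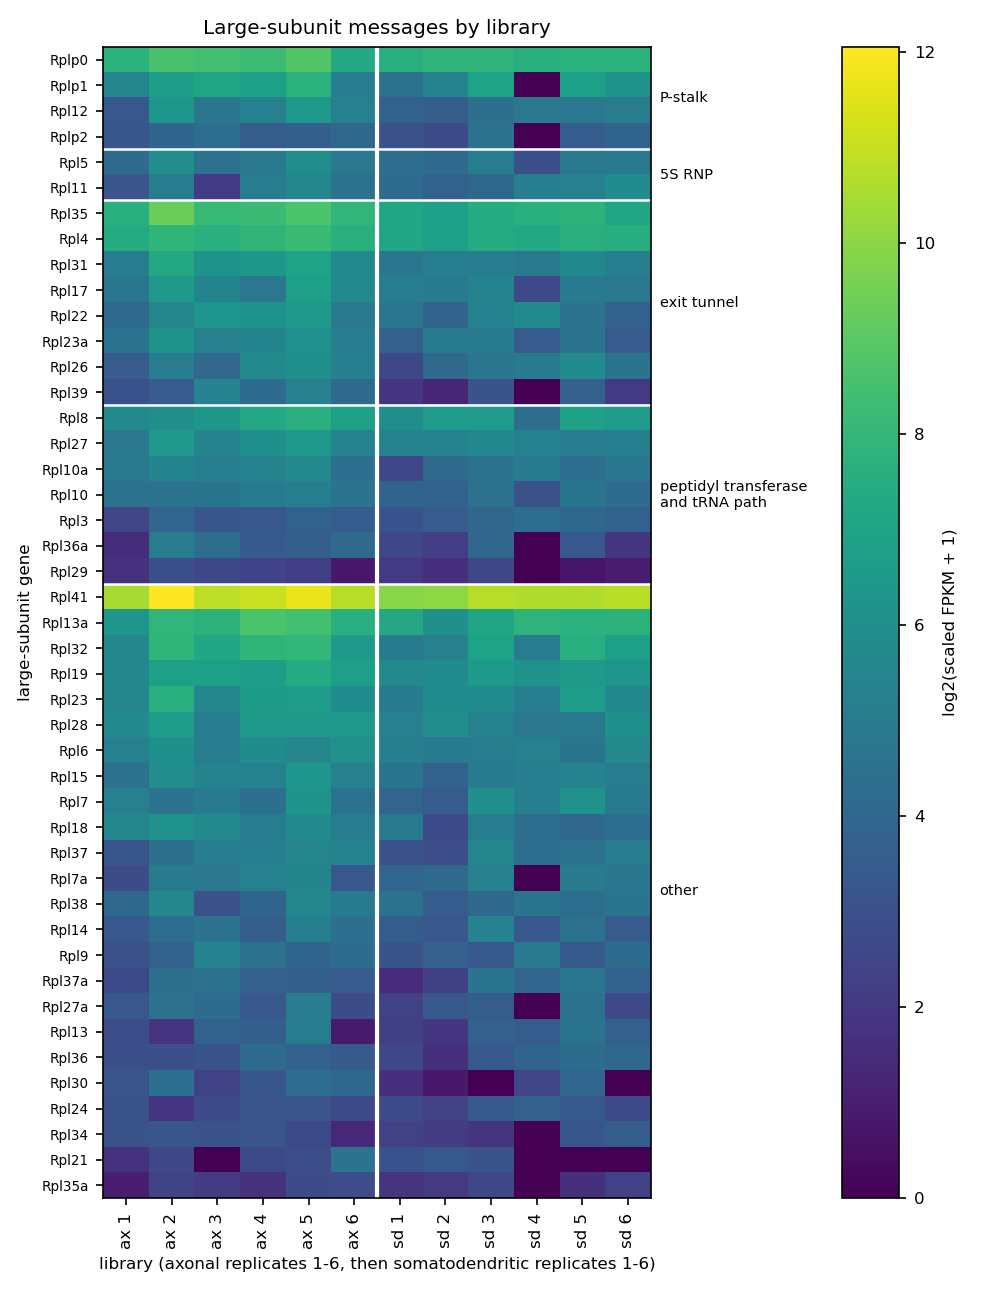
Log2(scaled FPKM + 1) of 45 large-subunit genes (down) in the axonal (ax) and somatodendritic (sd) libraries (across), grouped by role and ordered by mean level within each role. Rpl41 is the brightest row, the darkest cells of sd 4 include the 9 genes listed at 0 there, and ax 2 and ax 5 are brighter than ax 1 across most rows.

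Among the other 25 genes 21 lay above the all-gene median (median log2 fold change 0.57). Rpl30, which forms a bridge to the small subunit, had 7.97, 19.9, 3.96, 8.27, 18.9 and 15.8 scaled FPKM in axonal replicates 1 to 6, against 2.15, 0.764, 0, 4.69, 14.1 and 0 in somatodendritic replicates 1 to 6, where the last value is a trace that rounds to 0. Somatodendritic replicate 5 stood far above the other 5, within the axonal range (2.09 ± 0.67, limma adjusted p = 0.389). Rpl18 had 46.8, 72.8, 50.6, 33.6, 53.8 and 33.2 in axonal and 28.3, 6.0, 33.2, 19.6, 14.9 and 19.5 in somatodendritic replicates 1 to 6. The groups met only where somatodendritic replicate 3 and axonal replicate 6 were nearly equal, and the log2 fold change was 1.33 ± 0.36 (limma adjusted p = 0.359).

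At the low end, Rpl24, another bridge protein, had 2.46 to 8.16 scaled FPKM on the axonal side and 3.96 to 11.8 on the somatodendritic side (−0.23 ± 0.41, limma adjusted p = 0.885). Rpl13 had a wide range in both compartments, 0.824 to 33.9 on the axonal side and 2.72 to 24 on the somatodendritic side (−0.28 ± 0.67, limma adjusted p = 0.915). Rpl7 had 21.1 to 75.4 on the axonal side and 10.3 to 70.8 on the somatodendritic side, and its log2 fold change, 0.04 ± 0.46 (limma adjusted p = 0.990), was below 0 in 9 of 29 alternative settings. Rpl21 was listed at 0 in 1 axonal and 3 somatodendritic libraries, and reached 23.0 in axonal replicate 6 against at most 9.0 in a somatodendritic library (0.83 ± 0.83, limma adjusted p = 0.776; 0.39 without axonal replicate 6). Rpl35a, mutated in some people with Diamond-Blackfan anaemia, had 1.01 to 6.30 on the axonal side and 0 to 4.95 on the somatodendritic side (0.41 ± 0.53, limma adjusted p = 0.829; 0.035 without somatodendritic replicate 4). None of these 5 separated the compartments.

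Levels among the 46 messages were unequal although their proteins occur once per ribosome, apart from the stalk pair. Mean scaled FPKM was at least 100 for 6 genes, between 10 and 100 for 34 and under 10 for 6. The order was much the same in both compartments: across the 46 genes the Pearson correlation of the log2 group means was 0.963 and Spearman's rho was 0.944, a description over genes that share their libraries and annotation. The SD was larger among axonal than among somatodendritic libraries for 36 of the 46, but the axonal mean was also the higher one for most genes. As a fraction of the mean the SD went both ways. It was 0.34 axonal against 0.08 somatodendritic for Rplp0, and 0.64 against 1.00 for Rpl39. The share of all genes with a larger axonal SD is not given here. Axonal replicate 1, the deepest library and the one with the lowest mitochondrial share of its group, was the lowest axonal library for 30 genes, and axonal replicate 5 the highest for 25. Among somatodendritic libraries, replicate 4 was lowest for 15 genes, replicate 2 for 14 and replicate 1 for 12, while replicate 5 was highest for 18.

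The deposited confidence bounds reached down to 0 for many of these values. Whether few reads or reads that match several genes widened them was not tested. The authors' lower bound on FPKM was above 0 for 15 to 29 of the 46 genes on the axonal side and for 4 to 20 on the somatodendritic side, with the 4 in somatodendritic replicate 4. That library also had 9 genes at 0, against at most 1 in any other library. For Rpl41, Rplp0 and Rpl4 the lower bound was above 0 in all 12 libraries, and for 13 genes, among them Rpl39, Rpl30, Rpl36a, Rplp2 and Rpl11, in none.

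Most large-subunit genes have near-identical copies elsewhere in the genome, and these held a large part of the FPKM. In transcripts of GENCODE M21, 463 other genes at other loci matched the 46 at 95% identity or more over at least 100 bases, and 450 of them are annotated as pseudogenes. The median was 7 copies per gene. Rpl21 had the most, 62, followed by Rpl29 with 53 and Rpl7a with 40, while Rpl24 had 0. For 33 of the 46 genes the summed FPKM of the copies, of which 312 are in the deposited tables, exceeded that of the gene. A gene with 1 such match counted as a copy with all its FPKM, here and in the sums below. This took in protein-coding genes of other names. Ciapin1, with 22.7 FPKM axonal and 41.8 somatodendritic, was the highest copy of Rpl7a, and Wdr89, with 4.87 and 5.03, that of Rplp2. The sources used here do not say how reads with several matches were assigned, so the split between a gene and its copies is uncertain.

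The copies mattered in different ways. The Rpl31 pseudogene Rpl31-ps8 alone averaged 341 FPKM on the axonal side and 208 on the somatodendritic side as deposited, several times the level of Rpl31. Rpl35 shares sequence with Gm2000, which the tables call protein coding and which averaged 122 and 84.4 FPKM. The only copy of Rpl41, Gm10076, averaged 246 FPKM on the axonal side and 218 on the somatodendritic side, a small amount beside Rpl41 itself. Rpl29 averaged 2.83 FPKM over the 12 libraries, while its copies summed to 169 FPKM on the axonal side and 149.7 on the somatodendritic side. Across the 46 genes the number of copies and the mean FPKM had a Spearman rho of −0.41, and exon length and mean FPKM one of −0.34, as descriptions over genes. Of the 46, 11 share sequence with a gene that overlaps them.

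**Figure D4:**
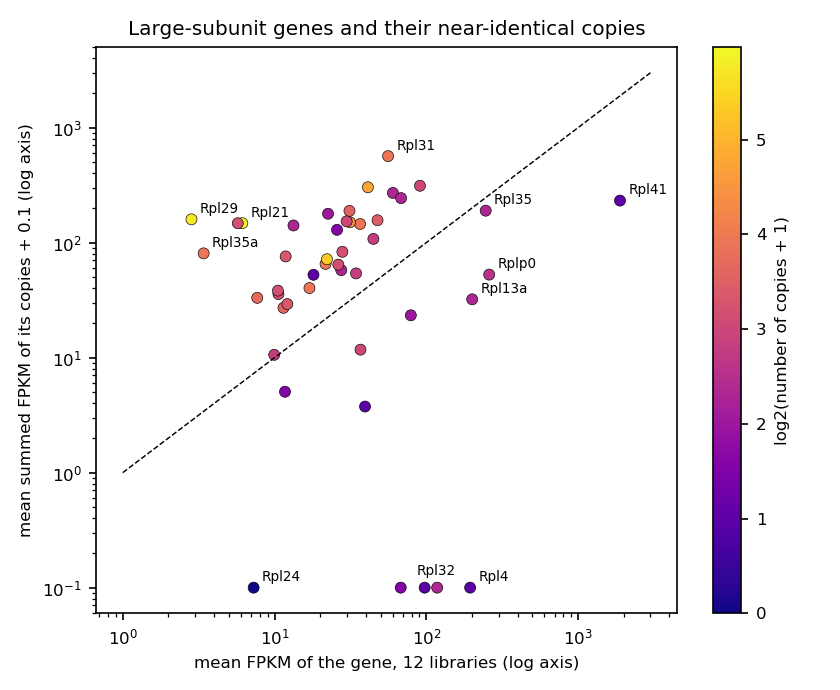
Mean FPKM of each large-subunit gene over 12 libraries (x, log axis) against the mean summed FPKM of its near-identical copies plus 0.1 (y, log axis), coloured by log2(number of copies + 1). The dashed line marks equal values. 33 of 46 points lie above it, and Rpl41, Rplp0 and Rpl35 lie below it.

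Adding each gene's copies to it evened out the levels and narrowed the fold changes. Summed in this way, 25 genes had a mean of at least 100 scaled FPKM, against 6 for the genes alone, and the SD of the log2 levels over the genes was 1.42, against 1.73. The log2 fold change was above 0 for 43 of 46, with a median of 0.57, and 0 were called. The all-gene median was then 0.17, and 39 of 46 lay above it. At an unadjusted p under 0.05 were 14 (30.4%), all higher in axons. Of all tested genes 8.83% were at that level in either direction, and 6.19% were higher. Of the 14, 8 were among the 12 of the genes alone. Rpl39 then had a log2 fold change of 0.68 ± 0.54, against 2.24 alone, and Rpl30 one of 0.46 ± 0.78, against 2.09 alone. Those of Rpl11 and Rpl3, which were below 0 alone, became 0.17 and 0.22, and that of Rpl21 became 1.40 ± 0.49. Rpl35 and Rpl41 barely moved, at 0.91 and 0.67. Rpl4 stayed at 0.50 because its only copy is not in the deposited tables, so that nothing was added to it. The fold changes with and without copies had a Spearman rho of 0.653 across the 46 genes. This sum was chosen after the data were seen.

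**Figure D5:**
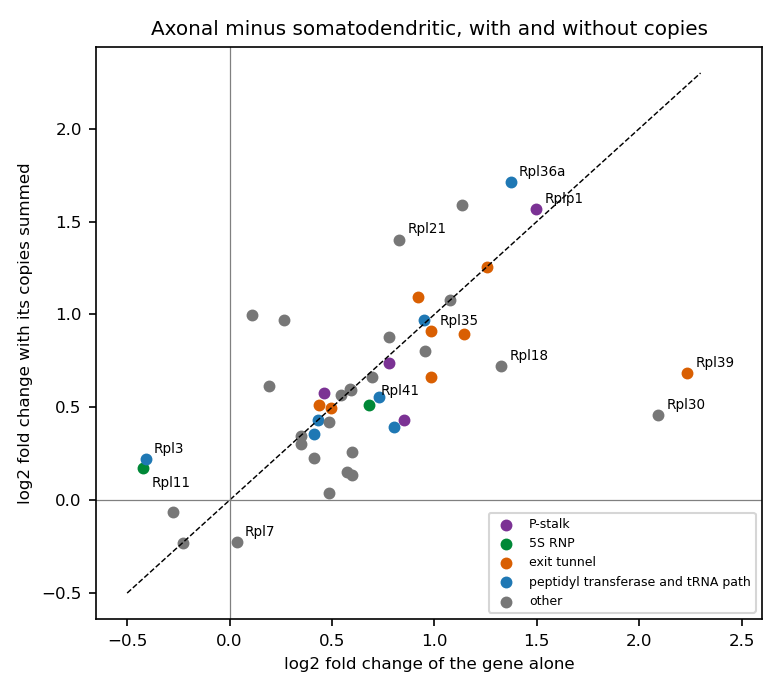
Log2 fold change, axonal minus somatodendritic, of each large-subunit gene alone (x) against the same gene with its near-identical copies summed (y), coloured by role, with the line of equality dashed. Rpl39 and Rpl30 lie far below the line, Rpl3 and Rpl11 cross from below 0 to above 0, and 43 of 46 points have a y value above 0.

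Genes with TOP letters at the annotated start and genes without them both had medians above 0. All 16 with the letters lay above the all-gene median, with a median log2 fold change of 0.69 and 5 at an unadjusted p under 0.05. Of the 18 with a window but without the letters, 15 lay above it, with a median of 0.49 and 4 at that level. All of these were higher in axons, as were 6.3% of all tested genes at that level. Without somatodendritic replicate 4 the medians were 0.56 with the letters and 0.46 without, and 14 of the 16 and 15 of the 18 lay above the all-gene median. The difference between the 2 sets was not tested. Of the 46 genes, 20 hold snoRNA genes within their span, 39 in all, among them the 4 snoRNAs of Rpl13a. The median log2 fold change was 0.75 for these 20 and 0.50 for the other 26, or 0.52 and 0.48 without somatodendritic replicate 4. The 14 genes with at least 10 copies had a median of 0.79 and the 32 with fewer 0.56, or 0.54 and 0.46 without somatodendritic replicate 4.

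Partner genes of the large subunit were read from lists. All 32 small-subunit genes had a fold change above 0 (median 0.54, 10 at an unadjusted p under 0.05 and 0 called). Rps15, the most abundant of them, averaged 425 ± 180.3 scaled FPKM on the axonal side and 218 ± 110 on the somatodendritic side (SD over n = 6 a side). Rps26 came next, with 248 ± 87.9 on the axonal side and 190.2 ± 89.1 on the somatodendritic side. For the large subunit of the mitochondrial ribosome 29 of 47 were above 0, with a median of 0.21, close to that of all genes. Mrpl42 averaged 74.5 ± 34.6 on the axonal side and 44.8 ± 19.1 on the somatodendritic side. Mrpl41 averaged 47.1 ± 20.3 on the axonal side and 41.8 ± 21.7 on the somatodendritic side. Relative to the all-gene median, the large subunit lay at 0.42 (0.32 to 0.64 over 29 alternatives), the small subunit at 0.36 (0.15 to 0.76) and the mitochondrial large subunit at 0.03 (−0.36 to 0.18).

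Factors that assemble the large subunit in the nucleolus and nucleus had a median below 0. Of 45 such genes, 21 were above 0, the median log2 fold change was −0.06, 0 were called and 2, chosen here after their values were seen, were lower at an unadjusted p under 0.05: Pes1 and Brix1. Pes1 averaged 12.2 ± 2.97 scaled FPKM on the axonal side and 26.8 ± 13.9 on the somatodendritic side (SD over n = 6 a side; log2 fold change −0.97 ± 0.34, limma adjusted p = 0.439). Brix1 had 3.01, 0, 21.6, 8.02, 10.2 and 0 in axonal replicates 1 to 6, against 5.19, 34.3, 20.3, 12.4, 5.47 and 23.7 in somatodendritic replicates 1 to 6 (−1.68 ± 0.77, limma adjusted p = 0.544). The most abundant of these factors, Rrp1, differed by −0.13 ± 0.22 (limma adjusted p = 0.869).

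TOP messages for proteins outside the ribosome were mixed. Of 18, 12 were above 0 with a median log2 fold change of 0.24. Eef1a1, the elongation factor that delivers aminoacyl-tRNA, averaged 915 ± 100.2 scaled FPKM on the axonal side and 1076 ± 65.9 on the somatodendritic side (SD over n = 6 a side; −0.24 ± 0.12, limma adjusted p = 0.572). Pabpc1, the poly(A)-binding protein, averaged 429 ± 111 and 345 ± 48.2 (0.28 ± 0.19, limma adjusted p = 0.675). Of 6 non-coding TOP host RNAs 4 were above 0. Gas5, a host of many snoRNAs, averaged 69.4 ± 13.2 on the axonal side and 34.1 ± 12.3 on the somatodendritic side (1.07 ± 0.28, limma adjusted p = 0.355). Of 13 mTOR and TOP regulators 8 were above 0, with a median of 0.12. Larp1 averaged 37.4 ± 15.7 and 38.0 ± 8.02 (−0.09 ± 0.28, limma adjusted p = 0.938).

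Rpl3l and Rpl39l, known from muscle and testis, were listed at 0 in all 12 libraries. Rpl36al, whose protein is nearly identical to that of Rpl36a, had 15.2, 30.7, 38.5, 43.8, 34.1 and 5.58 scaled FPKM in axonal replicates 1 to 6, against 0, 0, 21, 0, 20.8 and 21.6 in somatodendritic replicates 1 to 6 (log2 fold change 2.37 ± 0.92, limma adjusted p = 0.486). Rpl7l1 averaged 6.69 ± 3.83 and 9.43 ± 4.09 (SD over n = 6 a side; −0.45 ± 0.49, limma adjusted p = 0.796). Of 135 pseudogenes named after Rpl genes 68 passed the filter and 57 of these had a fold change above 0.

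Other RNA classes also had medians above 0, without any gene being called. All 13 mitochondrially encoded messages were above 0, with a median log2 fold change of 1.33, 8 at an unadjusted p under 0.05 and 0 called. Of 5 nuclear-retained RNAs 4 were above 0. They summed to 844 to 1619 scaled FPKM on the axonal side and 552 to 856 on the somatodendritic side, with Malat1 at 923 ± 319 and 483 ± 97.2 (SD over n = 6 a side). Erythroid markers summed to 5.43 to 70.1 on the axonal side and 0 to 7.51 on the somatodendritic side, with 4 of 5 tested above 0. Endothelial markers summed to 0.899 to 21.6 on the axonal side and 0 to 2.56 on the somatodendritic side. Of these 4 markers only Kdr passed the filter, and Cldn5 was listed at 0 in all 12 libraries.

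Markers of further cell types overlapped between the compartments. Astrocyte and radial glia markers summed to 45.2 to 407 scaled FPKM on the axonal side and 192 to 258 on the somatodendritic side, microglia and macrophage markers to 0.282 to 56.4 and 6.38 to 33, and Schwann and oligodendrocyte markers to 4.89 to 20.9 and 4.06 to 15.6. Fibroblast markers summed to 4.92 to 8.82 on the axonal side and 0.914 to 11.7 on the somatodendritic side, with Dcn listed at 0 in all 12, and muscle markers to 0 to 20.8 and 0 to 27.0. Of 8 tested neuron markers 1 was above 0. The part of these RNAs, of depth and of the replicate split in the large-subunit difference was not tested, apart from the within-subset values given above.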

How the data were processed

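The deposited values are FPKM per gene, with the authors' lower and upper confidence bounds, for 12 libraries; per the file headers, the tables follow Cufflinks gene output. The submitters' processing notes name GRCm38, FastQC 0.10.1 and Cufflinks 2.2.1. The sources used here do not give aligner settings, annotation release, strandedness or the treatment of reads with several matches. FPKM is relative to a library's own total, so an abundant RNA class lowers all other genes.

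Groups and replicate numbers came from the sample titles. Median-of-ratios factors over 5607 genes detected throughout scaled the libraries. The 13914 genes with mean FPKM of 1 or more entered limma 3.58.1 (R 4.3.3) as log2(scaled FPKM + 1), modelled by compartment alone with trended, robust moderation. Tests were two-sided with Benjamini-Hochberg adjustment at 0.05. Fold changes on this scale understate low genes. The worth of 1 read in FPKM varies with gene length, and count models were therefore not used. Depth was read from value steps of 2971 genes with 1 transcript, within 0.03 of a whole read. No counting interval could be given, and the steps give only an approximate depth.

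Copies were sought with BLAST 2.17.0 in GENCODE M21 transcripts, at 95% identity over at least 100 bases. Start windows came from the RefSeq promoter table (GRCm38.p6). Coordinates are those of the deposited tables. Python 3.11.15, numpy 2.4.6, pandas 2.3.3 and matplotlib 3.10.9 were used. The fitting procedure was first tested on simulated data. Protein sequences were not used here. Of the 46 genes, 1 counts in every total but is not reported by name or drawn in the plots that label each gene.

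Genes named by rule were Rplp0, Rplp1, Rplp2, Rpl5, Rpl11, Rpl3, Rpl10, Rpl39 and Rpl41, the 5 highest and 5 lowest fold changes, the 3 highest and 3 lowest levels, and at most 2 of the most abundant genes of each other list. Rpl31, Rpl4, Rpl23a, Pes1, Brix1, Vim and Tpt1 were chosen after their values were seen. The genes and lists were chosen with earlier results of these data known. The settings varied were scaling, pseudocount (0.1 and 5), filter, genes tested, moderation, a replicate block, a rank-sum test and the libraries included. Summing copies, leaving out Rpl41, and leaving out somatodendritic replicate 4 together with axonal replicates 1 and 2 were added after the data were seen.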

Additional observations from a re-analysis of the deposited data

Results flagged for a closer look

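Within groups of 6, a library was set apart where its gap to the nearest other exceeded Dixon's 95% critical share of the whole range, and 4 of 44 groups met this. For independent groups of normally distributed values, chance alone gives about 1 in 20. The groups here share libraries and the distribution of scaled FPKM was not tested, so 4 of 44 cannot be read against that rate. Rpl30 had 14.1 scaled FPKM in somatodendritic replicate 5, with 4.69 the nearest value of its group. Rpl7 had 75.4 in axonal replicate 5 and the next axonal library 36.5. Rpl13 had 33.9 in the same library, with 12.4 the next. Rpl21 had 23.0 in axonal replicate 6, with 6.09 the next. What sets these libraries apart was not tested.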

How the results depend on the processing

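No large-subunit gene was called under any of the 29 alternatives fitted with limma. Their median relative to all genes and the difference in their share of nuclear protein-coding FPKM stayed above 0 throughout, that share difference lying between 0.442 and 0.802 percentage points with 1 library left out. Scaling moved the median of all genes by −0.18 (as deposited), −0.13 (common sum) and −0.21 (quantile), and leaving out somatodendritic replicate 4 moved it by −0.14. Above 0 were then 39, 40, 39 and 41 of the 46 genes.

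Genes called over the whole table numbered 1 in the report, 3 with a pseudocount of 0.1 or plain moderation, 5 with array weights, 7 without axonal replicates 1 and 2, 0 within replicates 1 and 2, 7 within replicates 3 to 6, 6 with a term for replicates 1 and 2, and 5 without somatodendritic replicate 4 and axonal replicates 1 and 2. By rank-sum test 0 were called (1068 at an unadjusted p under 0.05), where the smallest adjusted p was 0.304. With 1 library left out the number called by limma ran from 1 to 11, the 11 without axonal replicate 6. The cause was not tested. With the replicate number as a block 5 genes were called, 0 of them large-subunit genes, 19 of which had an unadjusted p under 0.05; the relative median stayed at 0.42 and the share difference at 0.640. Same-numbered libraries correlated between −0.00048 and 0.243 in their deviations, 3 of 6 axonal and 2 of 6 somatodendritic libraries matching best with their own number, so the numbers were not taken to pair the libraries.

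Among the named large-subunit genes, 7 log2 fold changes changed sign. Rpl7 turned to −0.21 as deposited, −0.15 with a common sum, −0.049 with quantile scaling, −0.54 within replicates 3 to 6, −0.23 with copies summed, and between −0.26 and −0.0080 without axonal replicate 1 or 5 or somatodendritic replicate 1 or 2 (−0.22 without axonal replicate 5 and −0.18 without somatodendritic replicate 1; highest 0.27, without somatodendritic replicate 5). Rpl35a turned to −0.047 with quantile scaling, −0.033 with array weights and −0.33 within replicates 1 and 2. Rpl24 turned to 0.031 with array weights and 0.042 without somatodendritic replicate 4 and axonal replicates 1 and 2. Rpl11 turned to 0.014 without axonal replicate 3 (lowest −0.68, without axonal replicate 5), 0.084 within replicates 1 and 2 and 0.17 with copies summed. Rpl13 turned to 0.15 without axonal replicate 6 (lowest −0.71, without axonal replicate 5), 0.063 without axonal replicates 1 and 2, 0.17 within replicates 1 and 2 and 0.074 when somatodendritic replicate 4 was left out as well. Rpl21 turned to −1.12 within replicates 1 and 2, and Rpl3 to 0.22 with copies summed. The cause was not tested. For Rpl21, Rpl29 and Rpl35a the authors' lower bound was 0 in all 12 libraries.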

Other observations

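Among TOP messages for proteins outside the ribosome, Vim encodes the intermediate filament protein vimentin. It had 112, 247, 474, 276, 287 and 57.5 scaled FPKM in axonal replicates 1 to 6, against 63.2, 55.7, 76.3, 46.7, 143 and 80.9 in somatodendritic replicates 1 to 6. Axonal replicate 6 was the only axonal library below 100, and somatodendritic replicate 5 the only one above it on its side (log2 fold change 1.44 ± 0.42, limma adjusted p = 0.386). Tpt1, the translationally controlled tumour protein, averaged 438 ± 160.4 on the axonal side and 283 ± 75.6 on the somatodendritic side (SD over n = 6 a side; log2 fold change 0.59 ± 0.25, limma adjusted p = 0.498). Both genes were chosen after their values were seen.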
